A study of Homo sapiens with 23 samples.

Results

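The nuclear-encoded subunits of oxidative phosphorylation were followed in PC-3 cells that over-express PARG. They were taken by gene symbol, as every row named for a structural subunit of complexes I to V with assembly factors of complex I left out, which gave 89 of the 21463 gene rows. Complex I has 38 of them, complex II 4, complex III 9, complex IV 18 and complex V 20; NDUFA4 and its relative NDUFA4L2, once counted in complex I, are placed in complex IV by their role. A mean level of at least 1 RPKM (reads per kilobase of exon length at equal library size) was reached by 83 rows, all with a fold in all 4 comparisons, and these are 38 rows of complex I, 4 of II, 9 of III, 13 of IV and 19 of V. The 6 rows below it are COX6B2, ATP5MGL, NDUFA4L2, COX4I2, COX6A2 and COX7A1.

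PC-3 is a cell line from a human prostate cancer metastasis, and PARG is the glycohydrolase that removes poly(ADP-ribose) chains. Clones I4 and H6 each carry a lentiviral PARG cDNA, joined to a cleavable mClover3, under the TetOne promoter, which doxycycline switches on. Poly(A)-selected RNA was sequenced after 72 h with 500 ng/ml doxycycline, and after 72 h without it, in 2 experiments. Experiment N used cells at passage 5, a library kit that keeps both strands and sequencing at Novogene. Experiment B used cells at passage 7, a strand-specific kit and sequencing at QB3, so passage, kit and centre cannot be told apart. There are 4 groups of doxycycline-treated cells, I4 and H6 of N and of B, with 3 wells each, and their controls are untreated cells of the same clone and experiment, with 3 wells each except 2 for H6 in B. Each line is a single clone. Doxycycline, which also binds the ribosomes of mitochondria, was given to every induced group and to no other, so its own effect and that of PARG cannot be told apart. Parental cells given doxycycline were not analysed here.

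Only the authors' deposited table of the 4 comparisons was used. For each gene it holds the higher of the 2 group means, a signed fold and an adjusted p (q). It has no value per well, so no spread between wells can be given, the overlap of groups cannot be seen and the depth is unknown. The lower group mean printed here is the higher one divided by the fold. A gene is called higher or lower where the authors' q is under 0.05. PARG itself stood in the authors' deposited table at 29.3 RPKM in doxycycline-treated and 21.6 RPKM in untreated I4 cells of N, and at 56.2 and 26.1 RPKM in treated and untreated H6 cells of N. In B it stood in that table at 37.7 RPKM in treated and 26.9 RPKM in untreated I4 cells, and at 54.6 and 27.4 RPKM in treated and untreated H6 cells, and it was called higher in all 4. Epithelial keratins KRT8 and KRT18 and EPCAM were at 4.77 RPKM or above in the authors' deposited table and the prostate kallikreins KLK2 and KLK3 at 0.00695 RPKM or below, as known for PC-3. CDH1, another epithelial gene, reached no more than 0.394 RPKM. Of 9 markers of blood, fibroblasts and endothelium, CD68 lay between 16.1 and 27.4 RPKM, COL1A1 between 6.23 and 17.7 RPKM and PECAM1 between 0.719 and 1.34 RPKM, while PTPRC, CD3E, DCN, PDGFRB, CDH5 and VWF were at 0.0515 RPKM or below.

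Oxidative phosphorylation passes electrons from NADH through complex I, or from succinate through complex II, to ubiquinone, then through complex III, cytochrome c and complex IV to oxygen. Complexes I, III and IV pump protons across the inner mitochondrial membrane, and complex V, the ATP synthase, uses their return to make ATP. All complexes but complex II also hold subunits encoded by mitochondrial DNA, so that both genomes contribute to them. NRF1 and the ETS family factor GABP are known to bind the promoters of many nuclear subunit genes.

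Promoters are shown for 1 subunit each of complexes IV, V and III that was called higher by doxycycline in both clones of experiment N and whose window holds a word of either factor. The sequences are RefSeq's (GRCh38.p14), cut to the bases that lie before the RefSeq start and outside the GENCODE v29 gene, and they run 5′ to 3′ on the gene's strand. Capitals mark the NRF1-type word GCATGCGC and the ETS-type word CCGGAAG, or their reverse complements. COX5B is shown over chr2:97645812-97646039 (plus strand), ATP5ME over chr4:674339-674526 (minus strand) and UQCR11 over chr19:1605491-1605712 (minus strand).
COX5B: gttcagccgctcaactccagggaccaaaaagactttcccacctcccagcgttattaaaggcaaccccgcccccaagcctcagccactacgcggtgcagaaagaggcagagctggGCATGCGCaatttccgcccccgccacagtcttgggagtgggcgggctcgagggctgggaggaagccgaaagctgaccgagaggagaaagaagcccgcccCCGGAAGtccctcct
ATP5ME: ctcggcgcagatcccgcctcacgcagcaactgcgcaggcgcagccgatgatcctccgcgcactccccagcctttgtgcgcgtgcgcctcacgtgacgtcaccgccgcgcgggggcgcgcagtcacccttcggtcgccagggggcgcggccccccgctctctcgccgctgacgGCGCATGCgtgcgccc
UQCR11: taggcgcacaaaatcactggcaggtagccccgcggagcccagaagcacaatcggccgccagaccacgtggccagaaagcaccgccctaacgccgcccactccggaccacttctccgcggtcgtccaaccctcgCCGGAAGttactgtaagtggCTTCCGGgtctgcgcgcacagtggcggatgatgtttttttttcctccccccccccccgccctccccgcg

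The NRF1-type word begins 136 bases before the start of COX5B and 78 bases before that of ATP5ME, and the ETS-type word begins 37 bases before the start of COX5B and 117 and 97 bases before that of UQCR11. RefSeq windows of 250 bases were found for 71 of the 89 rows, 85 windows in all. The NRF1-type word, searched on both strands, was in 16.5% of these 85 windows and in 2.63% of all 35116 RefSeq windows of that length. The ETS-type word was in 22.4% of the subunit windows and in 8.52% of all windows, and the YY1-type word AAGATGGC in 2.35% and 1.36%. Among the subunits called higher in either clone of experiment N, the NRF1-type word was found in 6 of the 29 with a window, against 7 of the 42 other subunits. The ETS-type word was found in 10 of the same 29 and in 8 of the 42 others. A match of letters describes the window and says nothing of binding.

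In experiment N a part of the subunits, 24 in I4 and 22 in H6 of 83, was called higher in doxycycline-treated than in untreated cells, and in experiment B 1 was. By the authors' deposited q, 24 of the 83 subunits were called higher and 1 lower in I4 cells of N, where 10.4% of the 10752 genes tested were called higher and 12.6% lower. Calls in H6 cells of N were 22 higher and 2 lower, against 9.77% and 10.5% of all genes. In I4 cells of B none was called higher and 2 lower, where 10.1% of all genes were called higher and 9.02% lower. Of the 83, in H6 cells of B 1 was called higher and none lower, against 4.93% and 5.35% of all genes. The 58 uncalled subunits of I4 in N and the 59 of H6 in N did not pass the authors' threshold, which does not show that they did not change. Short genes outside the set were also called higher more often than all genes in N. Of other genes with a transcript under 750 bases, 22.2% were called higher in I4 and 23.5% in H6 cells of N. Shares by transcript length are given below.

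At the stricter q of under 0.01, the subunits called in I4 cells of N were 11 higher and 0 lower, against 6.85% and 8.8% of all genes. Those in H6 cells of N were 16 higher and 1 lower, against 6.37% and 7.04% of all genes. In B none passed it in either direction, against 6.98% higher and 6.36% lower of all genes in I4 and 3.04% and 3.59% in H6 cells.

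The median log2 fold over the 83 subunits was 0.16 in I4 and 0.12 in H6 cells of N, beside -0.01 in both clones over all 10752 genes, and 21 of the 83 had a fold downward in each clone. After subtraction of the median of other genes of the same length class, a step chosen after seeing the data, the H6 median in N was 0.04. Without that subtraction, the median log2 fold in B was 0.0023 in I4 and -0.01 in H6 cells, beside 0.0018 and 0.0082 over all genes. The log2 fold in N minus that in B was above 0 in 67 of 83 subunits of I4, with a median of 0.13, and in 62 of 83 of H6, with a median of 0.10. Over all genes the same difference was above 0 in 44.7% of genes in each clone, with a median of -0.02 in I4 and in H6. Without values per well the difference between experiments was not tested for any single gene.

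**Figure D1:**
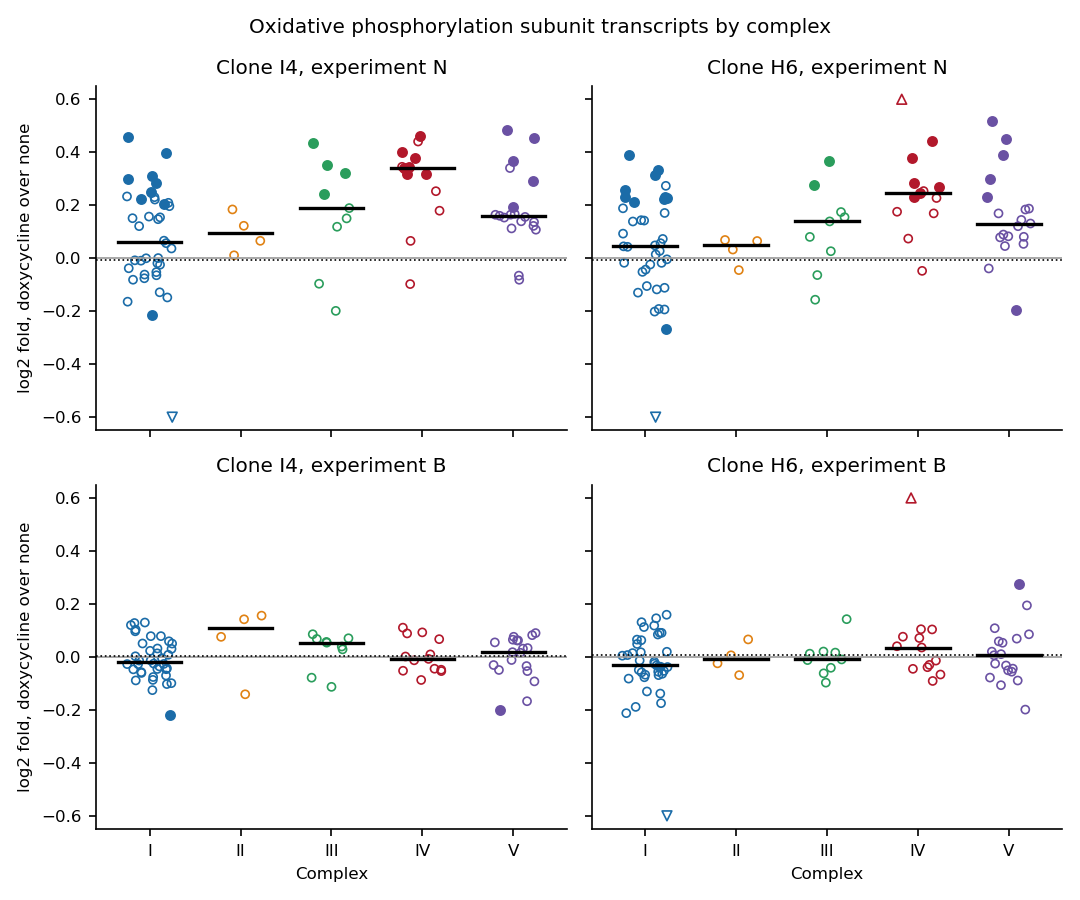
Each point is 1 subunit of at least 1 RPKM, placed by complex (horizontal axis) and by the log2 fold of doxycycline over no doxycycline in the authors' deposited table (vertical axis), in the 4 comparisons; filled points have a q under 0.05, bars are the complex medians, the dotted line is the median of all 10752 genes, and triangles at the edge are NDUFC2-KCTD14 and COX7B2, which lie beyond 0.6 either way. Complex IV has the highest medians in experiment N, and medians in experiment B lie within 0.11 of 0 in both clones.

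Calls of the clones overlapped in experiment N. Of the 24 subunits called higher in I4 and the 22 in H6, 14 were shared, which is 58.3% of the I4 list and 63.6% of the H6 list. Over all genes tested, 1115 were called higher in I4 and 1051 in H6, and 574 of these were shared. Calls of the clones thus overlapped over all genes as well. The 574 are 5.34% of the 10752 genes tested, which is not a share of the called lists and cannot be set beside the percentages of the subunits. The 14 are NDUFA1, NDUFA13, NDUFB1, NDUFB6 and NDUFS8 of complex I, UQCRFS1 and UQCR11 of complex III, COX5B, COX6B1, COX6C and COX7C of complex IV, and ATP5F1E, ATP5ME and ATP5MPL of complex V. In N the authors' deposited folds of the 14 lay between 1.15 and 1.40 in I4 and between 1.17 and 1.43 in H6. In B the authors' deposited folds of the same 14 stayed within 1.10-fold either way, 9 upward and 5 downward in each clone, with q of at least 0.43 in I4 and 0.47 in H6. NDUFA6 alone was called lower in both clones of N, as were 6.55% of all genes. No subunit was called alike in both clones of B, where 3.15% of all genes were called higher in both and 3.42% lower in both.

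Across the 83 subunits the log2 folds of the clones followed each other in N, with a Pearson r of 0.92 and a Spearman rho of 0.86, and less so in B, with an r of 0.24 and a rho of 0.39. Without the 2 readthrough rows, NDUFC2-KCTD14 and ATP5MF-PTCD1, r was 0.86 in N and 0.24 in B. Without COX7B2 as well, a gene of low level in H6, r was 0.87 in N and 0.37 in B. Over all 10752 genes r was 0.71 in N and 0.58 in B. These are correlations across genes that share libraries, and genes are not independent replicates.

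**Figure D2:**
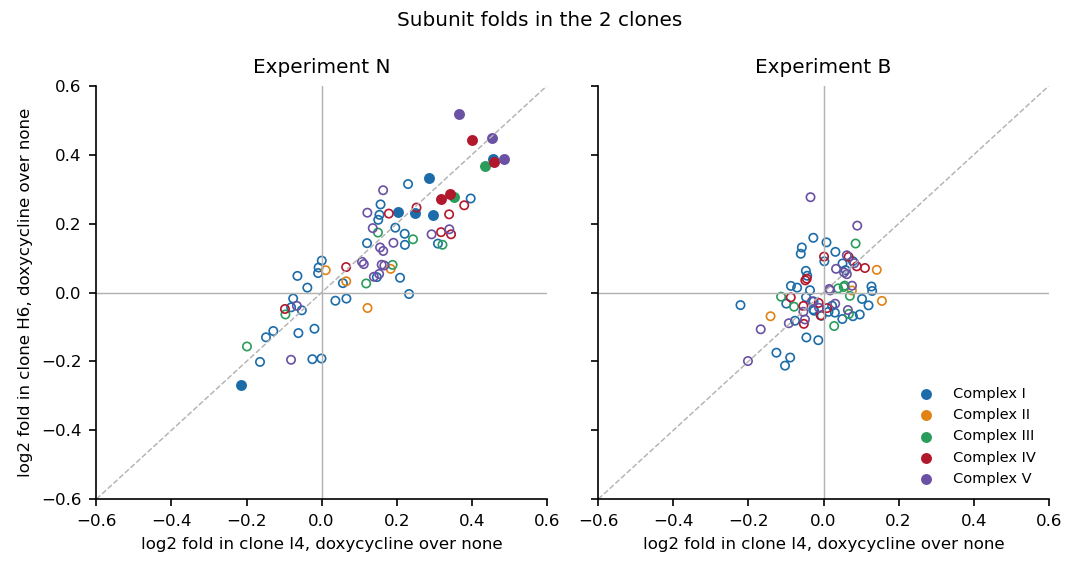
The log2 fold of each subunit in clone H6 (vertical axis) against that in clone I4 (horizontal axis), doxycycline over no doxycycline in the authors' deposited table, for experiment N (left) and B (right); colours give the complex, points called with the same sign in both clones are filled, the dashed line marks equal folds, and NDUFC2-KCTD14 and COX7B2 lie outside both panels. In N the points spread along the line with 14 filled points above 0 and NDUFA6 below, and in B they gather around 0 with no filled point.

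Complex I, the NADH dehydrogenase, had 5 of 38 subunits higher in both clones of N and 12 in either clone, against 5.34% and 14.8% of all genes tested. Its median log2 fold in N was 0.06 in I4 and 0.05 in H6, and in B -0.02 in I4 and -0.03 in H6. NDUFB1, an accessory subunit of the membrane arm, stood in the authors' deposited table at 36.6 RPKM in treated and 26.7 RPKM in untreated I4 cells of N (1.37-fold, q = 0.0147). Its deposited means in H6 cells of the same experiment were 31.6 and 24.1 RPKM in treated and untreated cells (1.31-fold, q = 1.7e-05). In B the authors' deposited table has NDUFB1 at 26.6 RPKM in treated and 25.2 RPKM in untreated I4 cells and at 25.8 and 27.1 RPKM in treated and untreated H6 cells. Both treated N means of NDUFB1 exceeded its other 6 group means, which ran from 24.1 to 27.1 RPKM.

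NDUFA1, an accessory subunit of the membrane arm, was at 104 RPKM in treated and 85.2 RPKM in untreated I4 cells of N in the authors' deposited table (1.22-fold, q = 0.0439). For H6 cells of the same experiment the deposited table has 104 and 82.4 RPKM in treated and untreated cells (1.26-fold, q = 6.22e-05). In B the deposited means of NDUFA1 were 84.9 RPKM in treated and 85.7 RPKM in untreated I4 cells, and 88.9 and 97.9 RPKM in treated and untreated H6 cells. NDUFA13, also known as GRIM-19, and NDUFB6 had, with NDUFS8, the smallest H6 folds of the 14, at 1.18, 1.17 and 1.17 in the authors' deposited table. NDUFS8, an iron-sulfur subunit that carries electrons toward ubiquinone, was the only core subunit of complex I called higher in both clones of N, at 55.9 RPKM in treated and 47.0 RPKM in untreated I4 cells and at 56.4 and 48.1 RPKM in treated and untreated H6 cells by the authors' deposited table. The 7 core subunits, which carry the redox centres, had median log2 folds of 0.04 in I4 and 0.05 in H6 cells of N, close to the 0.07 and 0.04 of the 31 accessory subunits.

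NDUFA6, an accessory subunit of the LYR protein family, went the other way. The authors' deposited table gives it 44.5 RPKM in treated and 51.6 RPKM in untreated I4 cells of N (1.16-fold lower, q = 0.0219). The deposited means for H6 cells of the same experiment were 40.1 and 48.3 RPKM in treated and untreated cells (1.21-fold lower, q = 0.00237). Its deposited folds were also downward in B without a call, 1.07-fold in I4 (q = 0.557) and 1.16-fold in H6 (q = 0.110). Exons of NDUFA6 overlap those of the opposite-strand gene NDUFA6-DT. NDUFA9, a subunit of the joint between both arms, was called lower in I4 cells of B, at 3.89 RPKM in treated and 4.53 RPKM in untreated cells in the authors' deposited table (1.17-fold lower, q = 0.0437), and had a fold of 1.18 upward in I4 cells of N (q = 0.168). NDUFS5, the complex I gene of highest level, lay between 269.8 and 305 RPKM in all 8 groups of the authors' deposited table and passed no call. NDUFAB1, the mitochondrial acyl carrier protein, was called in I4 cells of N, with a deposited fold of 1.32 (q = 0.00201), and not in H6 cells, with 1.21 (q = 0.0659); the difference was not tested.

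Complex II, succinate dehydrogenase, is made from nuclear genes alone and is shared with the citric acid cycle, and none of its 4 genes was called in any comparison. Over all genes 4.93% to 10.4% were called higher and 5.35% to 12.6% lower in the 4 comparisons, so no call among 4 genes is near those shares. SDHA, the flavoprotein that oxidises succinate, had deposited folds of 1.05 and 1.02 in I4 and H6 cells of N and of 1.10 and 1.05 in I4 and H6 cells of B, with q between 0.229 and 0.992 in the authors' table. SDHB, the iron-sulfur subunit, had deposited folds of 1.01 and 1.05 in N and of 1.10 and 1.05 downward in B. For the membrane anchor SDHC the authors' deposited table has 10.4 RPKM in treated and 9.59 RPKM in untreated I4 cells of N, and 11.0 and 9.90 RPKM in treated and untreated I4 cells of B. The other anchor, SDHD, came nearest to a call, at 27.7 RPKM in treated and 24.3 RPKM in untreated I4 cells of N in the authors' deposited table (1.14-fold, q = 0.062). Its deposited fold was 1.05 in H6 cells of N (q = 0.748) and in I4 cells of B (q = 0.797).

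Complex III, which passes electrons from ubiquinol to cytochrome c, had 2 of 9 subunits higher in both clones of N and 4 in either, beside 5.34% and 14.8% of all genes. Its median log2 fold was 0.19 in I4 and 0.14 in H6 cells of N, and 0.05 in I4 and -0.0096 in H6 cells of B. UQCRFS1, the Rieske iron-sulfur protein, stood in the authors' deposited table at 19.7 RPKM in treated and 14.5 RPKM in untreated I4 cells of N (1.35-fold, q = 0.000461). H6 cells of the same experiment had deposited means of 21.7 and 16.8 RPKM in treated and untreated cells (1.29-fold, q = 0.00545). In B the deposited table has UQCRFS1 at 18.7 RPKM in treated and 17.6 RPKM in untreated I4 cells and at 20.7 and 18.7 RPKM in treated and untreated H6 cells. For UQCR11, a small accessory subunit whose promoter is printed above, the authors' deposited means were 44.3 RPKM in treated and 34.7 RPKM in untreated I4 cells of N (1.28-fold, q = 0.00719). In H6 cells of the same experiment the deposited means were 49.2 and 40.6 RPKM in treated and untreated cells (1.21-fold, q = 0.00134). Not every subunit was called. CYC1, cytochrome c1, had deposited folds of 1.15 and 1.11 downward in I4 and H6 cells of N without a call (q = 0.228 and 0.440), and the core protein UQCRC1 of 1.07 and 1.05 downward. UQCRH, the hinge protein that binds cytochrome c1, had deposited folds of 1.11 and 1.13 upward in N (q = 0.147 and 0.0768), so the subunits of highest level in the complex were not called. The summed level of complex III was 966 RPKM in treated and 939 RPKM in untreated I4 cells of N and 874 and 851 RPKM in treated and untreated H6 cells.

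Complex IV, cytochrome c oxidase, had the largest median log2 folds of the complexes in N, 0.34 in I4 and 0.25 in H6 cells, and in B -0.0076 and 0.04. Of its 13 subunits of at least 1 RPKM, 4 were higher in both clones of N and 9 in either, beside 5.34% and 14.8% of all genes. A fold upward in both clones of N was found in 12 of the 13 and in 36.8% of all genes. In B none was called, and 5 had a fold upward in both clones and 5 a fold downward in both, beside 36.4% and 34.2% of all genes. COX5B, which sits on the matrix side and binds zinc, stood in the authors' deposited table at 158 RPKM in treated and 119 RPKM in untreated I4 cells of N (1.32-fold, q = 0.00423). Its deposited means in H6 cells of the same experiment were 147 and 108 RPKM in treated and untreated cells (1.36-fold, q = 0.000393). In B the deposited means of COX5B were 110.0 RPKM in treated and 114 RPKM in untreated I4 cells, and 113 and 110.0 RPKM in treated and untreated H6 cells. Both treated N means of COX5B thus exceeded its other 6 group means, which ran from 108 to 119 RPKM.

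COX6C, a membrane-spanning subunit, had the largest called fold of the complex in I4 cells of N, at 79.4 RPKM in treated and 57.7 RPKM in untreated cells in the authors' deposited table (1.38-fold, q = 0.0236). In H6 cells of N its deposited means were 74.6 and 57.4 RPKM in treated and untreated cells (1.30-fold, q = 0.00304). In B they were 72.9 and 75.6 RPKM in treated and untreated I4 cells and 63.7 and 67.8 RPKM in treated and untreated H6 cells. Its untreated means in N were the lowest of the 8. COX6C also has 17 named pseudogene copies, with which reads could be shared. COX7C, a small membrane subunit, was higher 1.27-fold in I4 cells of N (q = 0.00794) and 1.22-fold in H6 cells (q = 0.00047), and COX6B1, on the side of the intermembrane space, 1.25-fold (q = 0.0185) and 1.21-fold (q = 0.00165), by the authors' deposited table.

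COX6A1, the subunit of highest level in the whole set, stood in the authors' deposited table at 562 RPKM in treated and 432 RPKM in untreated I4 cells of N (1.30-fold, q = 0.00243). In H6 cells of N it was at 591 and 496 RPKM in treated and untreated cells and missed the threshold (1.19-fold, q = 0.0870). In B the deposited means of COX6A1 were 437 RPKM in treated and 453 RPKM in untreated I4 cells and 511 and 525 RPKM in treated and untreated H6 cells. NDUFA4, the subunit once assigned to complex I, followed the same course, with a deposited fold of 1.25 in I4 cells of N (q = 0.0175), 1.13 in H6 cells of N (q = 0.0753), and 1.01 and 1.02 downward in I4 and H6 cells of B. COX4I1, the isoform found in most tissues, had a deposited fold of 1.05 in each clone of N (q = 0.748 in I4 and 0.689 in H6) and was not called. COX7A2L, which holds complexes III and IV together in supercomplexes, had deposited folds of 1.07 and 1.03 downward in I4 and H6 cells of N and was the 1 subunit of complex IV with a fold downward in both.

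Tissue-specific isoforms of complex IV were near absent. COX4I2, the lung-type isoform, was listed at 0 throughout the authors' deposited table. The heart and muscle isoforms COX6A2 and COX7A1 were listed at 0 in all comparisons of that table but 1 each, with a higher group mean of 0.0338 RPKM for COX6A2 in I4 cells of B and 0.0627 RPKM for COX7A1 in H6 cells of N. COX6B2, the testis isoform, and NDUFA4L2, a hypoxia-induced relative of NDUFA4, reached no more than 0.100 and 0.433 RPKM in the authors' deposited table. COX7B2 differed between clones, at 4.12 RPKM in treated and 3.04 RPKM in untreated I4 cells of N and 0.371 and 0.234 RPKM in treated and untreated H6 cells of N. In B its deposited means were 3.38 and 3.17 RPKM in treated and untreated I4 cells and 0.508 and 0.0931 RPKM in treated and untreated H6 cells. That difference between clones was not tested, and no fold of COX7B2 was called (lowest q = 0.0969, in H6 cells of B). The ubiquitous counterparts COX7A2 and COX7B had deposited folds of 1.19 and 1.27 in I4 cells (q = 0.0904 and 0.0649) and 1.19 and 1.12 in H6 cells of N (q = 0.00564 and 0.0957), so COX7A2 was called in H6.

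Complex V, the ATP synthase, had 3 of 19 subunits higher in both clones of N and 7 in either, beside 5.34% and 14.8% of all genes, with median log2 folds of 0.16 in I4 and 0.13 in H6 cells of N and of 0.02 and 0.0062 in I4 and H6 cells of B. In I4 cells all 19 had a larger log2 fold in N than in B, and in H6 cells 17 of 19. ATP5F1E, the epsilon subunit of the central stalk, had the largest called fold of all members in I4 cells of N, at 42.0 RPKM in treated and 30.0 RPKM in untreated cells in the authors' deposited table (1.40-fold, q = 0.00199). In H6 cells of N its deposited means were 40.3 and 30.8 RPKM in treated and untreated cells (1.31-fold, q = 5.07e-07). In B they were 35.5 and 34.2 RPKM in treated and untreated I4 cells and 36.7 and 35.2 RPKM in treated and untreated H6 cells. The B means of ATP5F1E thus lay between its untreated and its treated means in N.

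ATP5ME, the e subunit of the membrane-bound Fo part, had the largest called fold in H6 cells of N, at 176 RPKM in treated and 123 RPKM in untreated cells in the authors' deposited table (1.43-fold, q = 2.71e-11). In I4 cells of N the deposited table has ATP5ME at 187 and 145 RPKM in treated and untreated cells (1.29-fold, q = 0.0481). In B it has 101 and 104 RPKM in treated and untreated I4 cells and 98.7 and 104 RPKM in treated and untreated H6 cells. ATP5ME exons overlap those of MYL5 on the opposite strand, and its level was higher in N than in B also without doxycycline. ATP5MPL, a small proteolipid of the Fo part, was at 26.5 and 19.3 RPKM in treated and untreated I4 cells of N in the authors' deposited table (1.37-fold, q = 0.000232). For H6 cells of the same experiment the deposited table has 32.4 and 23.8 RPKM in treated and untreated cells (1.37-fold, q = 0.000315).

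Other parts of the enzyme did less. ATP5F1B, the catalytic beta subunit and the complex V gene of highest level, had deposited folds of 1.10 and 1.03 in I4 and H6 cells of N (q = 0.515 and 1.00) and of 1.01 and 1.03 downward in B. The c-ring is encoded by ATP5MC1, ATP5MC2 and ATP5MC3, which give the same mature protein, and their calls differed without a test of the difference. ATP5MC1 was called lower in H6 cells of N, at 114 RPKM in treated and 131 RPKM in untreated cells in the authors' deposited table (1.14-fold lower, q = 0.0427), and in I4 cells of B, at 101 and 116 RPKM in treated and untreated cells (1.15-fold lower, q = 0.0465). ATP5MC2 was called higher in I4 cells of N, with a deposited fold of 1.23 (q = 0.034), and ATP5MC3 was not called, with deposited folds of 1.12 and 1.09 upward in I4 and H6 cells of N. ATP5IF1, the inhibitor that blocks ATP hydrolysis by the enzyme, had a deposited fold of 1.23 in H6 cells of N (q = 0.000562) and of 1.12 in I4 cells (q = 0.119). ATP5F1D, the delta subunit of the central stalk, was the only subunit called higher in B, at 38.1 RPKM in treated and 31.4 RPKM in untreated H6 cells in the authors' deposited table (1.21-fold, q = 0.0336), and was also called in H6 cells of N (1.17-fold, q = 0.0108).

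Levels were summed by complex, which takes the deposited means to be per length, as RPKM are. The 89 subunits summed to 7124 RPKM in treated and 6332 RPKM in untreated I4 cells of N, a ratio of 1.13. They summed in H6 cells of N to 6961 and 6349 RPKM in treated and untreated cells, a ratio of 1.10. In B they summed to 5983 RPKM in treated and 6021 RPKM in untreated I4 cells and to 6247 and 6304 RPKM in treated and untreated H6 cells, ratios of 0.994 and 0.991. Complex IV took the largest part of the difference in N, at 1958 RPKM in treated and 1553 RPKM in untreated I4 cells, a ratio of 1.26. Its sum in H6 cells of N was 1940 RPKM in treated and 1627 RPKM in untreated cells, a ratio of 1.19. The ratio in N was 1.14 and 1.10 for complex V, 1.06 and 1.05 for complex I, 1.05 and 1.03 for complex II and 1.03 and 1.03 for complex III in I4 and H6 cells. With bulk RNA, fewer cells that use a gene and less of its RNA per cell cannot be told apart.

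**Figure D3:**
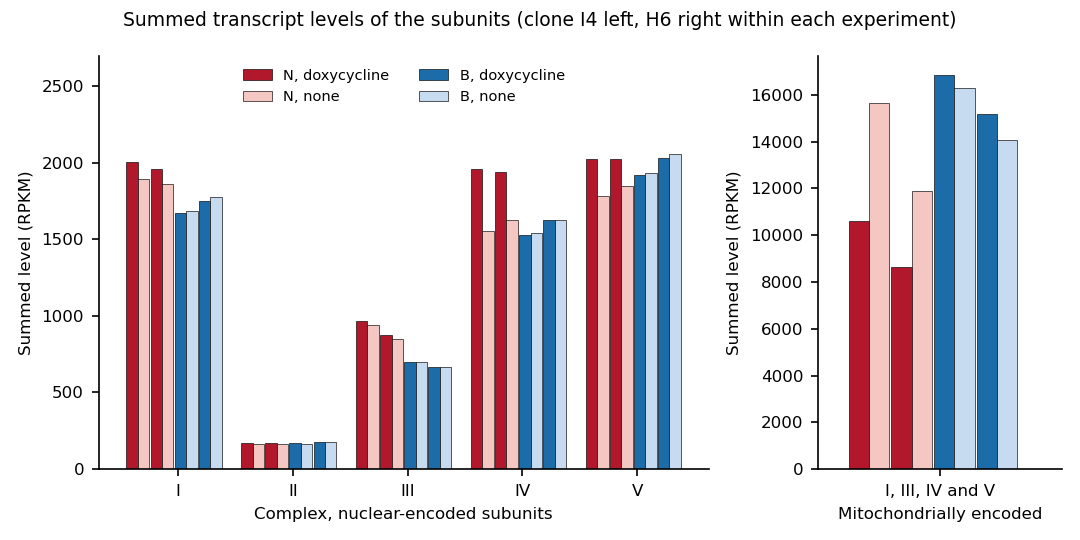
Summed RPKM (vertical axes, from 0, with separate scales) of the nuclear-encoded subunits of each complex (left) and of the 13 mitochondrially encoded subunits (right); each pair of bars is doxycycline-treated (dark) beside untreated (pale), red for experiment N and blue for B, with clone I4 before H6, and bars are authors' group means with no error available. The dark red bars exceed the pale ones most in complex IV and lie below them for the mitochondrially encoded subunits, whereas the blue pairs differ little.

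The subunits encoded by mitochondrial DNA had folds downward in N, all 13 in each clone. Of these 13, 12 were called lower in I4 and 5 in H6 cells of N, against 12.6% and 10.5% of all genes, and none higher. Their median log2 folds were -0.65 and -0.55, and the other 8 in H6 cells did not pass the threshold. In B 2 were called higher in I4 and 1 in H6, against 10.1% and 4.93% of all genes, and none lower. Their summed level in N was 10621 RPKM in treated and 15650 RPKM in untreated I4 cells, a ratio of 0.679. In H6 cells of N it was 8639 RPKM in treated and 11879 RPKM in untreated cells, a ratio of 0.727, and in B the ratios were 1.03 and 1.08. MT-CYB, the cytochrome b of complex III, stood in the authors' deposited table at 497 RPKM in treated and 789 RPKM in untreated I4 cells of N (1.59-fold lower, q = 0.00459). The deposited means for H6 cells of the same experiment were 413 and 635 RPKM in treated and untreated cells (1.54-fold lower, q = 0.0116). For MT-ND5 of complex I the deposited table has 269 and 425 RPKM in treated and untreated I4 cells of N (1.58-fold lower, q = 0.000778). H6 cells of the same experiment had deposited means of 235 and 343 RPKM in treated and untreated cells (1.46-fold lower, q = 0.00936). MT-CO3 of complex IV was the 1 gene of the 13 not called in I4 cells of N, with deposited folds of 1.06 and 1.02 downward in I4 and H6 cells of N and q of 0.851 and 1.00. MT-ATP8 had the largest falls, 4.17-fold (q = 4.2e-07) and 3.10-fold (q = 0.0188) in I4 and H6 cells of N. In I4 cells of B MT-ATP8 was called higher, 1.46-fold (q = 1.96e-11). MT-ND6 was lower 3.18-fold and 2.66-fold in N, and its untreated I4 mean was 555 RPKM in N and 87.7 RPKM in B. Overlap with genes on the opposite strand, which the kit of N cannot separate, was not counted for these 13.

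The factors that assemble the complexes were called in both directions. Of 52 assembly factors, 7 were called higher and 8 lower in I4 cells of N (13.5% and 15.4%, against 10.4% and 12.6% of all genes). In H6 cells of N 3 were higher and 6 lower (5.77% and 11.5%, against 9.77% and 10.5%), and the median log2 folds in N were 0.03 and 0.02. In B 3 were called higher and 3 lower in I4 cells (5.77% each, against 10.1% and 9.02% of all genes). In H6 cells of B 2 were higher and none lower (3.85% and 0%, against 4.93% and 5.35%). Both shares in I4 cells of N were above those of all genes and most of the others were below them, each resting on few genes. TTC19, needed to clear fragments of the Rieske protein UQCRFS1 from complex III, was called higher in all 4, with deposited folds of 1.25 and 1.27 in I4 and H6 cells of N and 1.38 and 1.41 in I4 and H6 cells of B. COX17, the copper chaperone of complex IV, had a pattern like that of the complex IV subunits, with deposited folds of 1.41 (q = 5.75e-05) and 1.32 (q = 2.63e-06) in I4 and H6 cells of N and of 1.00 in I4 and 1.03 downward in H6 cells of B. PET100, another complex IV assembly factor, was higher 1.25-fold (q = 0.0192) and 1.48-fold (q = 3.15e-13) in I4 and H6 cells of N by the authors' deposited table. The other factors with 2 calls went downward. COA7 was called lower in I4 and H6 cells of N, with deposited folds of 1.29 and 1.18 downward, and NDUFAF1 with 1.20 and 1.23 downward. COA3 was called lower in H6 cells of N and I4 cells of B, each with a deposited fold of 1.20 downward. ECSIT, which acts in complex I assembly, was called lower in I4 and H6 cells of N and I4 cells of B, at deposited folds of 1.23, 1.20 and 1.18 downward.

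Of 17 regulators of mitochondrial biogenesis, 8 were called lower and none higher in I4 cells of N, and 6 lower and 1 higher in H6 cells of N. Over all genes 12.6% and 10.5% were called lower and 10.4% and 9.77% higher in I4 and H6 cells of N. In B 5 were lower in I4 and 3 in H6 cells, where 9.02% and 5.35% of all genes were. None was higher in B, where 10.1% and 4.93% of all genes were in I4 and H6 cells. Lower calls also outnumbered higher ones over all genes, except in I4 cells of B. PPARGC1B, a coactivator of the nuclear subunit genes, stood in the authors' deposited table at 0.722 RPKM in treated and 1.13 RPKM in untreated I4 cells of N and at 0.863 and 1.38 RPKM in treated and untreated I4 cells of B. It was called lower in all 4 comparisons, with deposited folds of 1.48 to 1.59 downward. MYC, which drives many mitochondrial genes, and NRIP1, a corepressor of them, were also called lower in all 4, with deposited folds of 1.20 and 1.49 downward in I4 cells of N. POLRMT and PPRC1 were called lower in 3 comparisons, both clones of N and I4 cells of B. Their deposited folds in I4 cells of B were 1.22 (q = 0.00537) and 1.35 (q = 4.31e-07) downward. TFAM, the packaging and transcription factor of mitochondrial DNA, was called lower in N, with deposited folds of 1.25 (q = 6.91e-05) and 1.23 (q = 0.000244) downward in I4 and H6 cells, and had folds of 1.02 and 1.07 downward in B (q = 1.00 and 0.811). The gene NRF1 itself was not called in any comparison, and the ETS factor gene GABPA was called higher in H6 cells of N, with a deposited fold of 1.19 (q = 0.00516). Exons of GABPA overlap those of the subunit gene ATP5PF on the opposite strand, which the kit of N cannot separate. ATP5PF had a deposited fold of 1.11 upward in H6 cells of N (q = 0.191), and the part of shared reads was not tested.

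A list of 21 enzymes covers the citric acid cycle and pyruvate dehydrogenase, with cytosolic counterparts such as ACO1 and MDH1. Of the 21, 2 were called higher and 2 lower in I4 cells of N, and 1 higher and 4 lower in H6 cells of N. The shares in I4 cells, 9.52% each way, are near the 10.4% and 12.6% of all genes, and those in H6 cells were 4.76% higher and 19.0% lower, against 9.77% and 10.5%. In B 1 was called lower in each clone (4.76%, against 9.02% of all genes in I4 and 5.35% in H6). None was called higher in B, against 10.1% and 4.93% of all genes. IDH3A and IDH3G, which encode subunits of 1 enzyme, NAD-dependent isocitrate dehydrogenase, were called in opposite directions in N: the deposited folds of IDH3A were 1.33 and 1.25 downward and those of IDH3G 1.17 and 1.18 upward in I4 and H6 cells. ACO1, the mainly cytosolic aconitase, was called lower in 3 comparisons, with a deposited fold of 1.52 downward in I4 cells of N. DLAT was called lower in H6 cells of N and of B, with deposited folds of 1.23 (q = 0.000526) and 1.19 (q = 0.0319) downward. MDH1, also cytosolic, was called higher in I4 cells of N alone, with a deposited fold of 1.27 (q = 0.00755). Of 33 electron carriers, metabolite carriers and import factors, 4 were called higher and 5 lower in I4 cells of N, and 2 higher and 4 lower in H6 cells of N. Their I4 shares in N, 12.1% and 15.2%, are likewise near those of all genes. Those in H6 cells of N were 6.06% and 12.1%, against 9.77% and 10.5%. In B 1 was higher and 4 lower in I4 cells (3.03% and 12.1%, against 10.1% and 9.02% of all genes). In H6 cells of B 1 was higher and 1 lower (3.03% each, against 4.93% and 5.35%). TOMM40, the pore through which subunit precursors enter, and TIMM44, which ties the import motor to the inner membrane, were each called lower in 3 comparisons, with deposited folds of 1.28 and 1.30 downward in I4 cells of N. TOMM7, a small subunit of the outer membrane pore, was called higher in I4 and H6 cells of N (deposited folds of 1.30 and 1.15) and lower in H6 cells of B (1.19, q = 0.0362).

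Most subunits are short. The median length of the principal transcript was 916 bases over the 83 subunits and 3030 bases over the other genes, and 73.5% of subunits, against 14.0% of other genes, were under 1500 bases. The 14 subunits higher in both clones of N had a median of 759.5 bases, against 930 bases in the other 69, and complex IV had the shortest median, 716 bases, against 1914.5 bases in complex II. Short genes outside the set also had folds above 1 in N: the 230 other genes under 750 bases had median log2 folds of 0.11 in I4 and 0.12 in H6, against 0.16 and 0.18 in the 31 subunits of that length. Between 750 and 1500 bases the medians in N were 0.18 and 0.14 in 30 subunits and 0.04 and 0.06 in 1261 other genes, in I4 and H6 cells. From 1500 to 3000 bases they were 0.07 and 0.03 in 13 subunits and -0.0048 and 0.01 in 3754 other genes. Over 3000 bases they were 0.12 and 0.05 in 9 subunits and -0.03 and -0.04 in 5378 other genes. Under 750 bases, 38.7% and 32.3% of subunits were called higher in I4 and H6 cells of N, against 22.2% and 23.5% of other genes. From 750 to 1500 bases the shares were 30.0% and 33.3%, against 13.3% and 17.7%. From 1500 to 3000 bases they were 15.4% and 7.69%, against 9.70% and 10.0%, and over 3000 bases 11.1% each, against 9.37% and 6.92%. In B the 230 short genes had medians of -0.03 and 0.03, beside -0.03 and -0.0096 in the 31 short subunits. After subtraction of the median of other genes in the same length class, the median of the subunits in N was 0.12 in I4 and 0.04 in H6. The part of transcript length in the result was not tested.

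**Figure D4:**
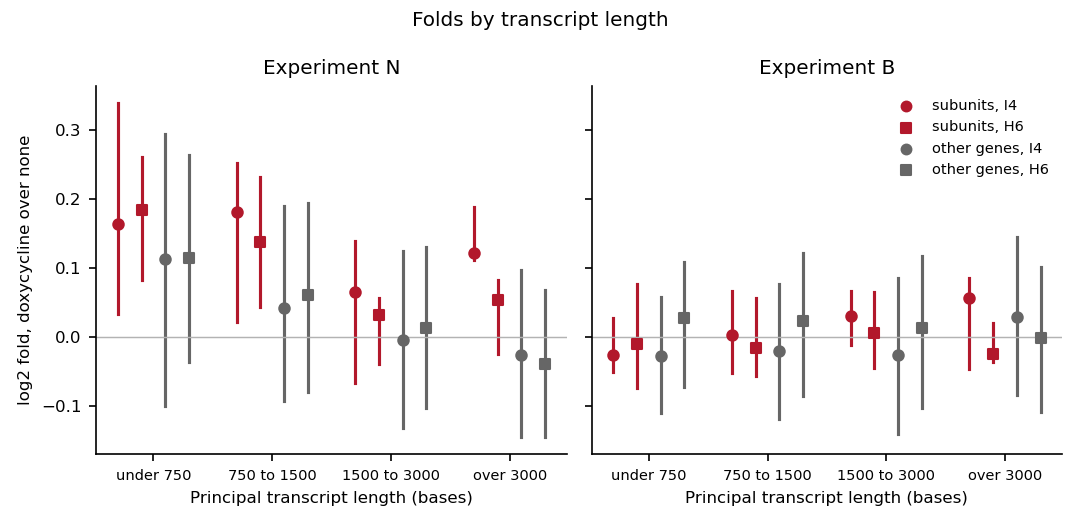
Median (symbols) and quartiles (lines) of the log2 fold of doxycycline over no doxycycline (vertical axis) by length class of the principal transcript in bases (horizontal axis), for the subunits (red) and all other genes of at least 1 RPKM (grey), in experiment N (left) and B (right), with circles for clone I4 and squares for H6. In N the medians of other genes fall with length, from 0.11 and 0.12 under 750 bases to -0.03 and -0.04 over 3000 bases, and the subunit medians lie above them in every class. In B the subunit medians lie between -0.03 and 0.06.

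Strand and repeated copies touch many members. Exons of 34 of the 83 subunits overlap a gene on the opposite strand, which the kit of N cannot separate, and this includes NDUFA1, NDUFB6, UQCRFS1, ATP5F1E and ATP5ME among the 14. The median log2 fold in N was 0.14 in I4 and 0.08 in H6 cells over these 34, and 0.16 and 0.17 over the 49 with no such overlap. Named pseudogene copies exist for 46 members, and their medians in N were 0.16 and 0.11, against 0.15 and 0.12 in I4 and H6 cells over the 37 with none. The part of shared reads was not tested for any single gene.

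Without doxycycline the median ratio of N over B was 0.997 in I4 and 0.948 in H6 cells over the 83 subunits, with single subunits on both sides. In each clone 6.02% of subunits differed more than 2-fold, against 6.46% of all genes in I4 and 4.80% in H6. They included NDUFS7, at 13.8 RPKM in untreated I4 cells of N and 4.06 RPKM in untreated I4 cells of B (3.39-fold higher in N), and ATP5F1D, at 70.4 and 26.0 RPKM in untreated I4 cells of N and of B (2.70-fold), both from the authors' deposited table. CYC1 was 2.31-fold and 2.07-fold higher in N in untreated I4 and H6 cells. NDUFB7 was 2.19-fold higher in I4 and COX7B2 2.51-fold higher in H6 cells. NDUFA9 was lower in N, at ratios of 0.499 in I4 and 0.640 in H6, and NDUFC2-KCTD14 at 0.344 in H6. The log2 ratio of N over B followed the GC content of the principal transcript across the 83 subunits, with r of 0.69 in I4 and 0.43 in H6, and over all genes r was 0.63 and 0.48. The doxycycline folds had an r with GC content of -0.20 in I4 and -0.08 in H6 cells of N, and of -0.42 in I4 and -0.14 in H6 cells of B. These correlations run across genes of the same libraries.

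**Figure D5:**
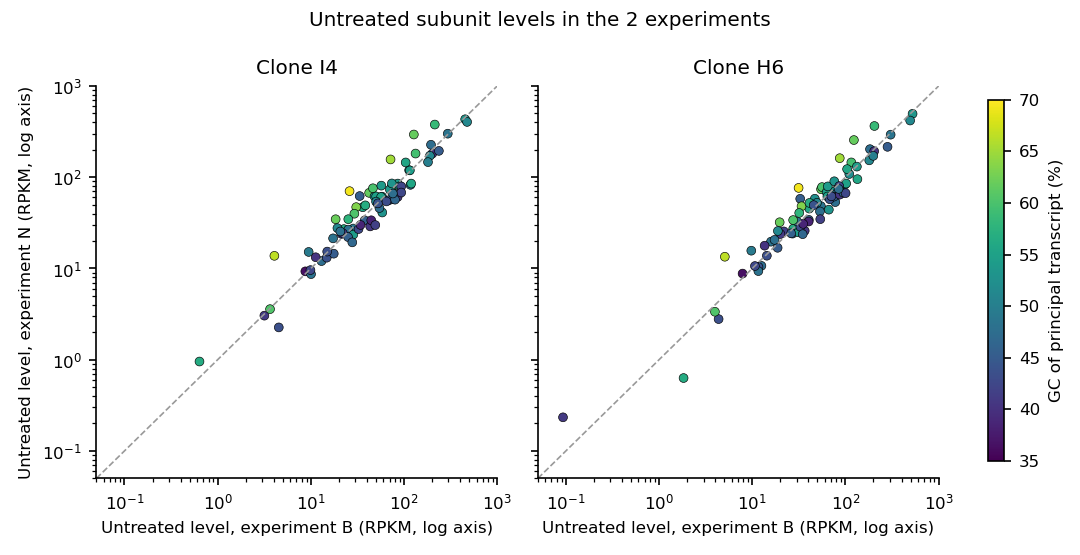
Untreated level of each of the 83 subunits in experiment N (vertical axis) against experiment B (horizontal axis), in RPKM on log axes, for clone I4 (left) and H6 (right), from the authors' deposited table; the colour gives the GC percentage of the principal transcript and the dashed line marks equal levels. Points of high GC content such as ATP5F1D and NDUFS7 lie above the line, and NDUFA9 lies below it.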

How the data were processed

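Poly(A)-selected RNA of 23 libraries was sequenced, per the labels' protocols. The genome build was hg38, per the submitters' processing notes. The authors' aligner, counting program, gene annotation and test are not named in the labels or the file. The only file is the authors' deposited table of 4 comparisons. Its level is the higher group mean, made by the authors and read here as RPKM from the values, since the header names no unit. The fold is the authors' deposited signed score, never between -1 and 1, and positive where doxycycline is higher, as read from PARG. The q-value was deposited by the authors as an adjusted p. No value per library is given, so no test was run and the wells' spread, replicate error and depth are unknown; p-values then measure at most the spread between wells of 1 clone.

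Members were taken by symbol; members, lists and tests were chosen with earlier results of these data known. Folds were converted to log2 values with pandas 2.3.3 and numpy 2.4.6 under Python 3.11.15, and drawn with matplotlib 3.10.9. Rows with a mean of the 4 levels of at least 1 RPKM and a fold in all 4 comparisons were counted, 10752 in all. Named are members called alike in both clones of an experiment, the 5 largest rises and falls called in a comparison, the member of highest level of each complex, the SDH genes, isoforms, and up to 4 genes of each list, by the number of comparisons called. Further genes tied in that number were added for assembly factors and regulators. Those ties, other members named, and MT-CO3, NRF1, GABPA, TFAM and MDH1, were chosen after their values were seen. Lengths, GC, overlaps and pseudogene names are from GENCODE v29, matched by symbol for 99.6% of rows. Some markers of the cell line are not reported here. Counting of calls was tested on simulated data. Alternatives were other thresholds, level filters, no readthrough rows and centring.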

Additional observations from a re-analysis of the deposited data

How the results depend on the processing

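No paired analysis was possible because the deposited table holds no value per library, and leaving out wells was not possible for the same reason. No result reversed. At q under 0.01 the subunits called in N were 11 higher and 0 lower in I4 and 1 lower in H6 cells, with 0 lower in I4 and 0 higher in H6 cells of B; counts of higher calls in H6 cells of N stayed within 1.5 times. At 10 RPKM or more, which keeps 76 subunits, 1 was lower in I4 cells of B, against 10.1% of all genes of that level. Centring on other genes of the same length class, chosen after seeing the data, gave medians of 0.0437 in H6 cells of N and 0.0800 for N minus B in I4 cells; the cause was not tested. Over all settings run, the medians in B, near 0, lay between 0.000465 and 0.0278 in I4 and between -0.0316 and -0.00256 in H6 cells. Without the level filter or the readthrough rows no count changed, and the other medians run stayed within 1.5 times under these and under centring on all genes or on genes of like exon length. Depth is unknown, and values per well would be needed to test the difference between experiments.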
